A study of Mus musculus with 21 samples.

Results

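The comparison described here sets left ventricular myocardium of mice that carried a pressure overload and received sildenafil (TAC+PDE5A-I, 5 mice) against that of mice after sham surgery (Sham, 5 mice), and follows the microRNAs that did not lie at the Sham level under the drug. The libraries were chosen by the group named in their labels, which gives 10 of the 21 libraries of the series. All mice were C57BL/6J. Transverse aortic constriction (TAC) narrows the aorta and makes the left ventricle pump against a raised pressure. Sildenafil was given for 4 weeks from week 1 after TAC. The Sham mice had no constriction and no drug, so surgery and drug differ together between these groups and cannot be told apart in this comparison. The other libraries are from mice with TAC alone (TAC, 5) and with TAC and an inhibitor of PDE9A (TAC+PDE9A-I, 6). The labels give no dose, age or sex. Each library carries the ear tag of a mouse of its own, and whole pieces of ventricle were lysed, so each value mixes cardiac muscle cells with vessels, stroma and blood.

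MicroRNAs are short RNAs that guide Argonaute proteins to messenger RNAs and lower the output of those messages. A hairpin precursor is cut into a 5p and a 3p arm, and either arm may be loaded. Target choice rests mostly on the seed, bases 2 to 8 from the 5′ end. Sildenafil blocks phosphodiesterase 5A, an enzyme that breaks down cyclic GMP, a messenger that acts on heart muscle through protein kinase G. The pressure-overloaded heart is known for raised miR-208b, miR-21a, miR-199a and miR-214 and for lowered miR-1a, miR-133a, miR-29 and miR-30.

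The mature sequences below are those on which the results turn, from RefSeq (GRCm38.p6), with the seed in capitals. The first set was higher than Sham in every fit required below, except miR-351-5p, which shares the seed of both miR-125 members.
miR-501-3p: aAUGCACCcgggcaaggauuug
miR-214-3p: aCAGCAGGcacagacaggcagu
miR-6944-3p: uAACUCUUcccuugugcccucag
miR-1247-5p: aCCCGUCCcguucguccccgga
miR-127-3p: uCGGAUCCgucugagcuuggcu
miR-99b-5p: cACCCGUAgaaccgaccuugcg
miR-125a-5p: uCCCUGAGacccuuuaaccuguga
miR-125b-5p: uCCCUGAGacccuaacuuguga
miR-351-5p: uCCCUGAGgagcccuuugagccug
The second set was lower than Sham in every such fit.
miR-101a-3p: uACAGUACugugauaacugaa
miR-101b-3p: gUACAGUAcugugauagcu
miR-101c: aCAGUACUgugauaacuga
miR-144-3p: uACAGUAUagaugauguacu
miR-142a-5p: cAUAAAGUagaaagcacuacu
miR-148a-3p: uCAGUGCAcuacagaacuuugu
let-7a-1-3p/let-7c-2-3p: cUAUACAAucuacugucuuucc
The third set holds hairpins whose arms moved in opposite directions, and miR-208b-3p, the close relative of miR-208a-3p.
miR-208a-5p: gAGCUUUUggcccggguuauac
miR-208a-3p: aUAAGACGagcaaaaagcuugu
miR-208b-3p: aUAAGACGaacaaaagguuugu
miR-455-5p: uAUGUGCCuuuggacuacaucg
miR-455-3p: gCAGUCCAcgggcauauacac
The last set shows let-7 family members with 1 shared seed that were called in opposite directions.
let-7b-5p: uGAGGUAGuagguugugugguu
let-7c-5p: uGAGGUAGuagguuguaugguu
let-7f-5p: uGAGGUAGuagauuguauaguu
let-7g-5p: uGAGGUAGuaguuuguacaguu

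The libraries of the groups differed in depth and base composition. Sham libraries held 3766517 to 7490436 microRNA counts and TAC+PDE5A-I libraries 1205417 to 3969716. TAC+PDE5A-I replicates 3, 4 and 5 held fewer than 2000000 counts, and replicates 1 and 2, called the deeper libraries below, held 3149080 and 3969716. The count-weighted GC content of the microRNAs, over the counts that could be given a sequence, was 44.6% to 45.0% in Sham. It was 46.0% in both deeper TAC+PDE5A-I libraries and 47.7%, 48.2% and 48.6% in replicates 3, 4 and 5. In two-sided exact permutation tests, with values adjusted over 4 such tests, total counts (p = 0.0159, adjusted 0.0212), microRNAs detected (364 to 517 against 509 to 559, p = 0.0159, adjusted 0.0212) and GC content (p = 0.00794, adjusted 0.0212, the smallest p this design allows) differed. The share of counts in the 10 most abundant microRNAs was 71.9% to 82.5% against 71.5% to 73.8% (exact permutation p = 0.0714, adjusted 0.0714). The first principal component held 76.1% of the variance in log2 CPM, with Sham at -23.2 to -18.2, the deeper TAC+PDE5A-I libraries at 6.47 and -3.58 and the others at 30.5 to 37.6. In TAC+PDE9A-I, replicate 5 also held few counts (1546318) and had a GC content of 47.2%, while the other 5 libraries of that group had 44.7% to 45.3%. This library had no sildenafil, and its values are given beside some of the results below.

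**Figure D1:**
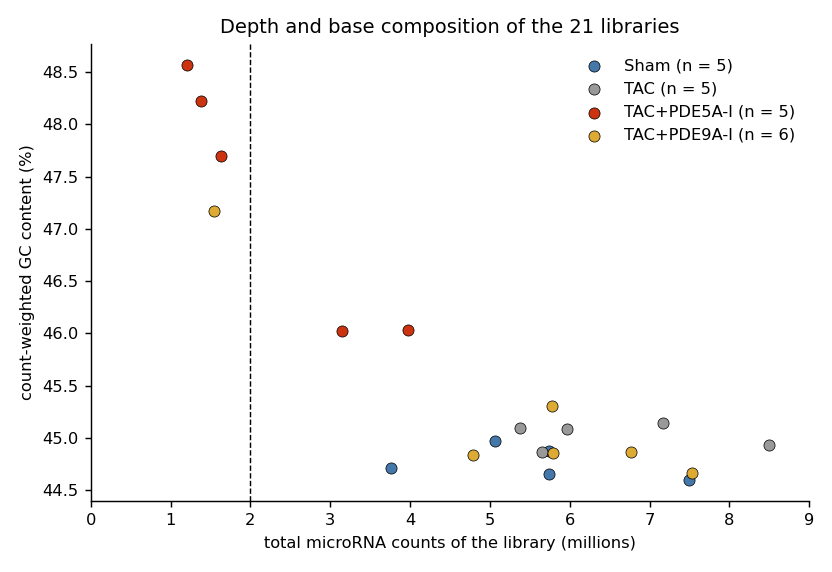
Total microRNA counts (x axis) and count-weighted GC content (y axis, percent) of each of the 21 libraries, coloured by group, with a dashed line at 2000000 counts. The 3 TAC+PDE5A-I libraries left of the line lie at 47.7% to 48.6%, near TAC+PDE9A-I 5 at 47.2%, and the 2 deeper TAC+PDE5A-I libraries lie at 46.0%, above every Sham library.

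The TAC+PDE5A-I libraries held more miR-501-3p, miR-214-3p, miR-6944-3p and miR-125a-5p than the Sham libraries. They held less of the miR-101 relatives, miR-144-3p, miR-142a-5p, miR-148a-3p and miR-208a-3p. Depth and base composition also differed between these libraries, and their part in the changes was not tested beyond the alternatives below. miR-208b-3p, called higher in TAC alone, did not differ detectably from Sham over all 5 treated libraries, and lay above Sham in the deeper libraries. A microRNA is called higher or lower here at a Benjamini-Hochberg adjusted p under 0.05 in edgeR's quasi-likelihood test, and levels are in CPM, read counts relative to the library total after scaling with TMM factors. Of 721 microRNAs with a count in these libraries, 446 passed the filter on low counts. Of these, 80 (17.9%) were called higher and 101 (22.6%) lower in TAC+PDE5A-I, together 40.6%, with a median log2 fold change over all 446 of -0.23. In 174 (39.0%) the groups did not overlap. With upper-quartile scaling the split was 168 higher and 83 lower with a median of 0.43, and with scaling by total counts alone it was 135 and 79 with a median of 0.11. Leaving out Sham 3, TAC+PDE5A-I 3 or TAC+PDE5A-I 4 brought the higher calls to 46, 43 and 44.

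Without the 3 libraries under 2000000 counts, 561 microRNAs could be tested on 2 against 5 libraries, and 43 (7.66%) were called higher and 94 (16.8%) lower, together 24.4%, with a median of -0.03. Among the original calls, 35 of 80 higher and 82 of 101 lower were called the same way in this smaller comparison. Fold changes followed base composition: over the 388 tested microRNAs with a sequence, Spearman's rho between GC content and log2 fold change was 0.74, and it was 0.58 over 486 with the deeper libraries alone. These are descriptions across microRNAs that share their libraries. Of 69 microRNAs under 40% GC, edgeR called 45 lower and 0 higher (52 and 0 at an unadjusted p under 0.05, 50 and 0 by DESeq2). Of 66 at 60% GC or more, edgeR called 27 higher and 0 lower (33 and 0 at an unadjusted p under 0.05, 30 and 0 by DESeq2). After a correction that removed the trend with GC content within each library, rho was 0.0084, and 107 (27.6%) were called higher and 46 (11.9%) lower of 388, together 39.4%. Of the original calls with a sequence, 50 of 74 higher and 39 of 87 lower were called the same way after this correction, and 7 of the 87 were called higher.

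**Figure D2:**
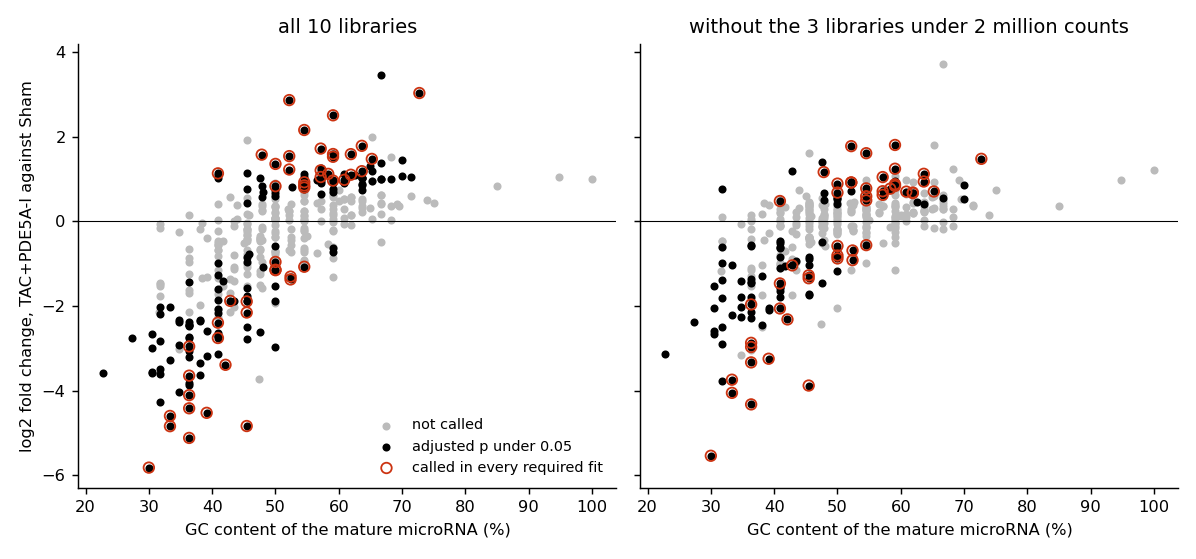
Log2 fold change of TAC+PDE5A-I against Sham (y axis) by GC content of the mature microRNA (x axis, percent) for 386 microRNAs, with all 10 libraries (left) and without the 3 libraries under 2000000 counts (right). Black points were called, grey points were not, and red rings mark microRNAs called in every required fit. The 2 microRNAs with a sequence that had 0 counts in every TAC+PDE5A-I library are not drawn. In the left panel the called microRNAs under 40% GC all lie below 0 and those at 60% or more all above it.

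Because depth and base composition moved with the groups, the microRNAs described first are those called in the same direction with all 10 libraries, without the libraries under 2000000 counts, after the GC correction, and with each of the 10 libraries left out in turn. These were 26 higher (5.83% of 446) and 24 lower (5.38%). Only the 388 microRNAs with a sequence could meet the requirement of a call after GC correction. Among those without a sequence, miR-1a-3p, miR-126a-5p and miR-145a-3p were called lower in all the other required fits. In all 50 the groups did not overlap, against 39.0% of all 446. All 50 were also called by DESeq2 and with all 4 groups in 1 fit. As the 50 were chosen by calls in these same libraries, these counts are no separate support. The higher microRNAs had a median log2 fold change of 1.29 with all libraries and 0.86 with the deeper libraries. The lower ones had -3.17 and -2.19, or -2.86 with all libraries when microRNAs at 0 throughout TAC+PDE5A-I are set at their bound. With the GC correction and without the shallow libraries at once, 7 of the 26 and 19 of the 24 were still called. The 7 were miR-501-3p, miR-214-3p, miR-574-5p, miR-6944-3p, miR-125a-5p, miR-222-3p and miR-15b-5p. Higher members not called there included miR-127-3p (0.91 ± 0.28, adjusted p = 0.0572 in edgeR) and miR-1247-5p (0.65 ± 0.32, adjusted p = 0.215 in edgeR). Others were miR-99b-5p (0.39 ± 0.17, adjusted p = 0.176 in edgeR) and miR-92b-3p (0.60 ± 0.26, adjusted p = 0.168 in edgeR). The change was larger in the shallow libraries: all 3 lay further from Sham than both deeper ones for 20 of the 26 higher and 18 of the 24 lower microRNAs. TAC+PDE9A-I 5, by CPM of library totals, lay beyond every Sham library in the same direction for 26 of the 26 and 24 of the 24. The TAC libraries did so for 15 to 25 of the higher and 6 to 10 of the lower members, and the other TAC+PDE9A-I libraries for 8 to 26 and 6 to 15. The same count was not made over all 446, so these counts cannot be read as particular to the 50. The part of depth and base composition in the changes was not tested beyond these alternatives.

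**Figure D3:**
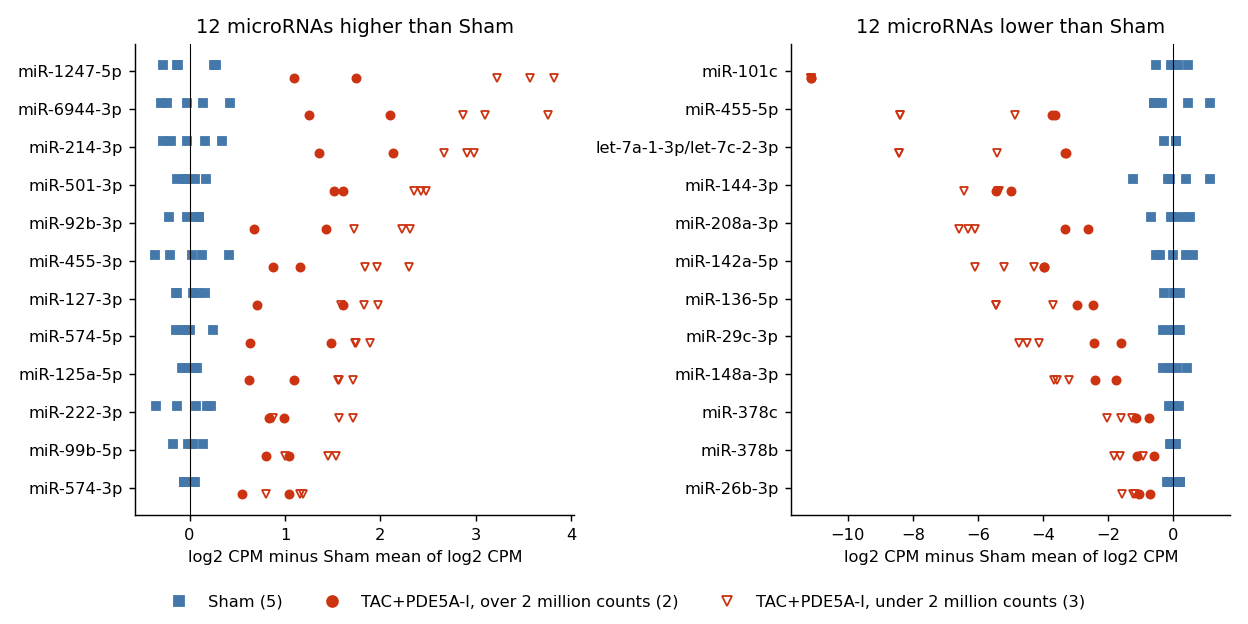
Levels in each of the 10 libraries (x axis, log2 CPM minus the Sham mean of log2 CPM, prior count 2) for the 12 higher (left) and 12 lower (right) microRNAs with the smallest p among those called in every required fit and with a mean of at least 10 CPM, 1 microRNA per line. Blue squares are Sham, filled red circles the 2 deeper TAC+PDE5A-I libraries and open red triangles the 3 under 2000000 counts. The 5 TAC+PDE5A-I libraries lie on 1 side of all 5 Sham libraries on every line, and in miR-101c all 5 coincide because they had 0 counts.

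Of the higher microRNAs, miR-501-3p had the smallest p. It lies at chrX:7241270-7241291 (GRCm38.p6, as for every position below), in an intron of Clcn5, which encodes a chloride/proton exchanger. It measured 12.6, 14.4, 13.4, 13.3 and 15.7 CPM in Sham 1 to 5 and 43.2, 40.6, 73.1, 79.3 and 76.6 CPM in TAC+PDE5A-I 1 to 5. All treated libraries lay above all Sham libraries, the deeper ones closest to them. The log2 fold change was 2.16 ± 0.24 (SE), 4.48-fold, with an adjusted p of 0.000244 in edgeR, and it was 1.61 ± 0.13 with the deeper libraries (adjusted p = 0.000378 in edgeR). In TAC alone it was 0.70 ± 0.11 (adjusted p = 0.00138 in edgeR). The values for TAC use the same 5 Sham libraries, so they are set beside the treated ones here without a test between them. In that comparison 75 of 507 microRNAs (14.8%) were called higher and 23 (4.54%) lower, together 19.3%. Of the 7 tested microRNAs of the cluster around miR-501-3p in Clcn5 (chrX:7237695-7248440), 3 were called higher in TAC+PDE5A-I, against 17.9% of all 446. Only 1 of the 7, miR-501-3p itself, was called in every required fit.

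The arms of the miR-214 hairpin, cut from the non-coding transcript Dnm3os of stromal cells, were both higher. miR-214-3p measured 63.1, 70.9, 59.8, 80.9 and 92 CPM in Sham and 319, 186, 464, 545 and 577 CPM in TAC+PDE5A-I. The groups were separate and the 3 shallow libraries were highest. Its log2 fold change was 2.51 ± 0.31 (adjusted p = 0.000466 in edgeR), 1.81 ± 0.23 with the deeper libraries and 2.21 ± 0.32 after GC correction, beside 1.93 ± 0.21 in TAC alone. The other arm, miR-214-5p, measured 20.6 to 24.1 CPM in Sham and 32.6 to 51.9 in TAC+PDE5A-I, with a log2 fold change of 0.85 ± 0.17 (adjusted p = 0.00538 in edgeR) beside 1.89 ± 0.18 in TAC. miR-199a-5p, from the same transcript, was not called, as described below.

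miR-6944-3p, from an intron of Dbn1 (the actin-binding protein drebrin, chr13:55477681-55477703), measured 9.44, 12.9, 11.5, 9.85 and 15.9 CPM in Sham and 52, 28.7, 105, 165 and 89 CPM in TAC+PDE5A-I. All treated values lay above all Sham values. Its log2 fold change was 2.87 ± 0.44 (adjusted p = 0.00147 in edgeR), and 2.32 ± 0.27 in TAC. miR-1247-5p, in an exon of the non-coding Dio3os at the end of the imprinted Dlk1-Dio3 region, measured 21, 21.3, 27.8, 28.1 and 18.9 CPM in Sham and 78.7, 49.95, 221, 279.9 and 335 CPM in TAC+PDE5A-I. The deeper libraries lay between Sham and the 3 shallow ones. Its log2 fold change was 3.04 ± 0.50 with all libraries and 1.48 ± 0.23 with the deeper libraries (adjusted p = 0.00194 and 0.00351 in edgeR), and 2.33 ± 0.22 in TAC. In TAC+PDE9A-I 5 it reached 114 CPM of library totals, above the other libraries of that group at 20.1 to 107.

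miR-127-3p, another microRNA of the Dlk1-Dio3 region (chr12:109592888-109592909), measured 959, 1180, 1087, 967 and 1113 CPM in Sham and 3229, 1724, 3168, 4155 and 3748 CPM in TAC+PDE5A-I. Replicate 1 lay within the range of the shallow libraries and replicate 2 between them and Sham. Its log2 fold change was 1.59 ± 0.23 (adjusted p = 0.00118 in edgeR), 1.29 ± 0.24 after GC correction and 1.31 ± 0.15 in TAC. Of 29 tested members of the Dlk1-Dio3 list, 5 were called higher and 3 lower, against 17.9% and 22.6% of all 446, with a median of 0.13. The median was 0.79 with upper-quartile scaling, and after GC correction 8 of 28 were called higher and 1 lower with a median of 0.53. miR-136-5p, in the same cluster as miR-127 (chr12:109595331-109595352), was lower, at 18.4 to 26.5 CPM in Sham and 0 to 3.65 in TAC+PDE5A-I, with a log2 fold change of -3.65 ± 0.58 (adjusted p = 0.00164 in edgeR). In TAC alone it was called higher at 0.87 ± 0.14 (adjusted p = 0.00138 in edgeR).

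The cluster of miR-99b, let-7e and miR-125a in Spaca6 (chr17:17830194-17830876) had all 6 of its tested arms called higher, against 17.9% of all 446, with a median of 0.99. Its most abundant member, miR-125a-5p, a microRNA of many cell types, measured 5044, 5460, 5410, 4879 and 5052 CPM in Sham and 10991, 7926, 16952, 15345 and 15175 CPM in TAC+PDE5A-I. No treated library overlapped Sham. The log2 fold change was 1.36 ± 0.22 (adjusted p = 0.00164 in edgeR) and 0.90 ± 0.14 with the deeper libraries, and it was 0.26 ± 0.13 in TAC, where it was not called (adjusted p = 0.208 in edgeR). miR-99b-5p measured 1930 to 2414 CPM in Sham and 3795 to 6305 in TAC+PDE5A-I, with a log2 fold change of 1.19 ± 0.19 (adjusted p = 0.00164 in edgeR). After GC correction miR-99b-5p was at 0.53 ± 0.16 (adjusted p = 0.0218 in edgeR), and at 0.39 ± 0.17 when the shallow libraries were also left out (adjusted p = 0.176 in edgeR). The other 4 arms of the cluster were not called without the shallow libraries. After GC correction both arms of let-7e were called higher, but only 1 arm each of miR-99b and miR-125a. For let-7e-5p the deeper libraries lay at 719 and 180 CPM, on either side of Sham at 276 to 361.

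The 3 tested microRNAs with the seed CCCUGAG were all called higher, against 17.9% of all 446, and 2 of them were called in every required fit. miR-125b-5p measured 3883 to 4436 CPM in Sham and 5273 to 8945 in TAC+PDE5A-I, with a log2 fold change of 0.83 ± 0.18 (adjusted p = 0.00553 in edgeR). miR-351-5p measured 516 to 657 and 746 to 1804 CPM, with 1.095 ± 0.25 (adjusted p = 0.00875 in edgeR), and was not called after GC correction (0.50 ± 0.20, adjusted p = 0.0733 in edgeR). miR-125a-5p and miR-125b-5p differ at 7 of their first 22 bases, all after the seed.

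Of the remaining higher microRNAs in the set, miR-574-5p and miR-574-3p come from 1 hairpin in an intron of Fam114a1. Their log2 fold changes were 1.58 ± 0.24 (adjusted p = 0.00147 in edgeR) for the 5p arm and 0.97 ± 0.17 (adjusted p = 0.0022 in edgeR) for the 3p arm. miR-92b-3p, a relative of the miR-25/92 family, measured 51.7 to 64.4 CPM in Sham and 96 to 301 in TAC+PDE5A-I, 3.46-fold higher. miR-222-3p, a microRNA of vessels known to target the cell-cycle inhibitor p27, measured 154, 205, 223, 229.5 and 178 CPM in Sham and 388, 349, 642, 579.8 and 359 in TAC+PDE5A-I. Its deeper libraries were about as high as replicate 5, and its log2 fold change was 1.23 ± 0.23 (adjusted p = 0.00319 in edgeR) with 0.92 ± 0.17 in the deeper libraries. The other members were miR-3102-3p, miR-125b-1-3p, miR-331-3p, miR-7688-5p, miR-652-3p, miR-8114, miR-298-5p, miR-140-3p, miR-195a-3p, miR-1981-5p and miR-15b-5p, beside miR-455-3p and miR-208a-5p, which are taken up with their hairpins.

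Of the lower microRNAs, miR-101c had the smallest p. The miR-101 family is known to target the histone methyltransferase Ezh2. miR-101c measured 1629, 823, 1137, 1332 and 1242 CPM in Sham and had 0 counts in all 5 TAC+PDE5A-I libraries, which makes it at least 854-fold lower against a floor of 3 counts per library (adjusted p = 1.29e-05 in edgeR). It also had 0 counts in TAC+PDE9A-I 5, while the other libraries of that group held 457 to 1285 CPM of library totals. The 19 bases of miR-101c are contained in the 21 of miR-101a-3p from its base 2 on, so reads of one can be counted under the other. miR-101a-3p measured 4448, 2429, 3246, 3705 and 3352 CPM in Sham and 232, 273, 32.1, 0 and 58.4 in TAC+PDE5A-I, with a log2 fold change of -4.84 ± 1.11 (adjusted p = 0.00862 in edgeR) and -3.74 ± 0.26 in the deeper libraries. miR-101b-3p, from another locus in Rcl1, measured 335 to 468 and 7.79 to 97.6 CPM, with -3.39 ± 0.72 (adjusted p = 0.00587 in edgeR). None of these 3 was called in TAC alone, where their log2 fold changes were -0.23 ± 0.15, 0.21 ± 0.16 and, for miR-101c, -0.23 ± 0.17.

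miR-144-3p, a microRNA of red cell precursors, measured 202, 64.2, 137, 339 and 144 CPM in Sham and 3.03, 4.33, 3.15, 1.25 and 3.25 CPM in TAC+PDE5A-I. The lowest Sham library lay well above the highest treated one, and the deeper libraries were as low as the others. The log2 fold change was -5.82 ± 0.51 (adjusted p = 6.86e-05 in edgeR), -5.54 ± 0.80 in the deeper libraries and -2.46 ± 0.59 after GC correction. It shares a primary transcript with miR-144-5p and miR-451a (chr11:78073010-78073207), and all 3 were called lower, against 22.6% of all 446. After GC correction, miR-144-5p (-0.48 ± 0.28, adjusted p = 0.196 in edgeR) and miR-451a (-0.46 ± 0.38, adjusted p = 0.377 in edgeR) were not called. miR-451a measured 1014, 348, 627, 971 and 664 CPM in Sham and 195, 390.5, 41.6, 21.2 and 14.9 in TAC+PDE5A-I, with TAC+PDE5A-I 2 above the lowest Sham library, at a log2 fold change of -2.44 ± 0.85 (adjusted p = 0.0412 in edgeR), and was not called with the deeper libraries (-1.28 ± 0.47, adjusted p = 0.0974 in edgeR).

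miR-142a-5p, from a hairpin of blood-forming cells, measured 323, 172, 187, 382 and 246 CPM in Sham and 15.4, 15.5, 6.3, 3.12 and 12.3 CPM in TAC+PDE5A-I, a log2 fold change of -4.60 ± 0.46 (adjusted p = 0.000142 in edgeR). All treated values lay below all Sham values, those of the deeper libraries included. Its other arm, miR-142a-3p, measured 592 to 765 and 0 to 240.4 CPM and just missed the threshold (-3.01 ± 1.11, adjusted p = 0.0508 in edgeR), but was called lower with the deeper libraries (-1.78 ± 0.22, adjusted p = 0.00174 in edgeR). miR-148a-3p, an abundant microRNA known to target the DNA methyltransferase Dnmt1, measured 9732, 6728, 7795, 6974 and 5833 CPM in Sham and 1384, 2127, 617, 575 and 781 in TAC+PDE5A-I. It was 6.76-fold lower, with a log2 fold change of -2.76 ± 0.39 (adjusted p = 0.0011 in edgeR) and -2.06 ± 0.26 in the deeper libraries. In TAC+PDE9A-I 5 miR-148a-3p held 669 CPM of library totals, and in the rest of that group 6409 to 9917.

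miR-33-5p, encoded in an intron of the sterol regulator Srebf2 and known to lower the cholesterol exporter Abca1, measured 6.46, 6.27, 4.18, 11.3 and 7.33 CPM in Sham and had 0 counts in all TAC+PDE5A-I libraries, at least 4.92-fold lower (adjusted p = 0.00164 in edgeR). Besides it and miR-101c, miR-669o-5p was the only tested microRNA with 0 counts throughout TAC+PDE5A-I, at 3.8 to 7.11 CPM in Sham. Both also had 0 counts in TAC+PDE9A-I 5. In the shallowest library 3 counts correspond to 2.49 CPM of library totals. No tested microRNA had 0 counts in every Sham library.

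The passenger arm let-7a-1-3p/let-7c-2-3p, which the counts join under 1 name, measured 195, 151, 193, 196 and 193 CPM in Sham and 18.2, 18, 0, 3.75 and 0 CPM in TAC+PDE5A-I. Its log2 fold change was -4.42 ± 0.91 (adjusted p = 0.00542 in edgeR) and -3.33 ± 0.16 in the deeper libraries. The miR-378 relatives miR-378c and miR-378b were lower by smaller amounts, -1.30 ± 0.23 (adjusted p = 0.00277 in edgeR) and -1.15 ± 0.24 (adjusted p = 0.00542 in edgeR) on the log2 scale. Neither arm of miR-378a was called, at 0.20 for 5p and -0.29 for 3p (adjusted p = 0.384 and 0.188 in edgeR). miR-378c measured 1726, 1510, 1527, 1560 and 1418 CPM in Sham and 695, 922, 641, 499.8 and 374 in TAC+PDE5A-I, and was also called lower in TAC (-0.60 ± 0.11). miR-26b-3p measured 32.6 to 43.7 and 12.3 to 22.8 CPM (-1.14 ± 0.19, adjusted p = 0.00219 in edgeR). The remaining members were miR-153-3p, miR-3068-3p, miR-30a-3p, miR-223-3p, miR-3074-5p, miR-690, miR-106b-5p, miR-27a-3p and miR-126b-3p, beside miR-29c-3p, miR-208a-3p and miR-455-5p. Under the 3 other scalings, 26 of the 26 higher and 22 of the 24 lower members were called the same way in each. The exceptions were miR-30a-3p and miR-3074-5p. With scaling by total counts and upper-quartile scaling, the median over all 446 rose from -0.23 to 0.11 and 0.43. Higher calls were thus easier to keep there, and the 26 of 26 is no separate support.

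Arms of 1 hairpin did not always move together. Of 117 hairpins with both arms tested, 11 had both called higher, 10 both lower and 6 in opposite directions, and 53 had 1 arm called. Over all 446 microRNAs, 17.9% were called higher and 22.6% lower, and the hairpin counts were not tested against these shares. In the 5 of the 6 opposed hairpins with a sequence for both arms, the higher arm had the higher GC content. The hairpins of miR-455 and miR-208a were opposed with all libraries, with the deeper libraries and after GC correction. With GC correction and without the shallow libraries at once, their higher arms were no longer called: miR-208a-5p was at 0.28 ± 0.16 (adjusted p = 0.263 in edgeR) and miR-455-3p at 0.76 ± 0.26 (adjusted p = 0.0825 in edgeR). Opposed hairpins numbered 3 of 153 with the deeper libraries and 4 of 96 after GC correction, and 1 of 141 in TAC against Sham.

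**Figure D4:**
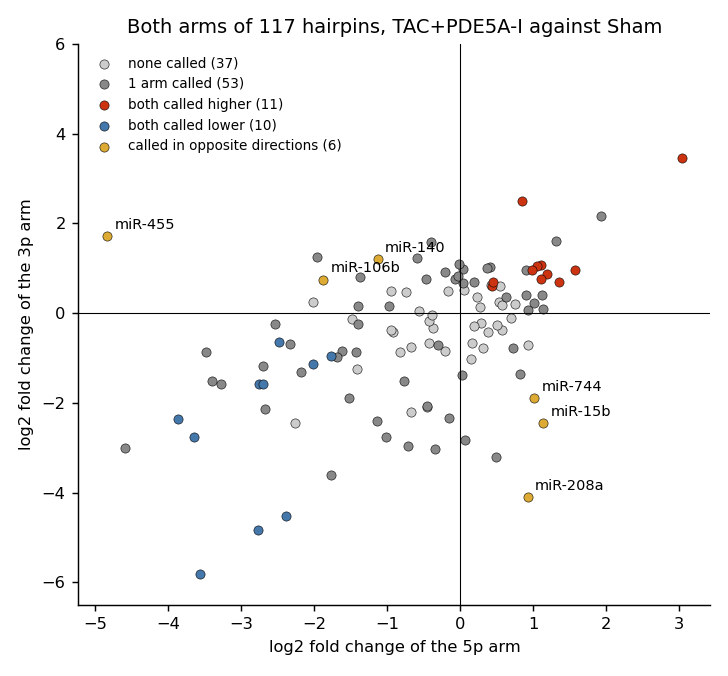
Log2 fold change of TAC+PDE5A-I against Sham for the 5p arm (x axis) and the 3p arm (y axis) of 117 hairpins, coloured by which arms were called, with the 6 opposed hairpins named. miR-208a, miR-15b and miR-744 lie at the lower right (5p higher, 3p lower) and miR-455, miR-106b and miR-140 at the upper left.

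miR-208a is cut from an intron of Myh6, the gene of the adult fast cardiac myosin heavy chain, and is made by heart muscle cells. miR-208a-3p measured 1082, 470.2, 724, 927 and 767 CPM in Sham and 76.2, 123, 10.7, 7.5 and 9.09 CPM in TAC+PDE5A-I. Every treated library was lower than every Sham library, and the deeper ones were less low than the others. The log2 fold change was -4.11 ± 0.84 (adjusted p = 0.00538 in edgeR), -2.97 ± 0.38 in the deeper libraries and -2.05 ± 0.32 after GC correction. Its partner miR-208a-5p measured 69.2, 88, 80.7, 78.8 and 71.7 CPM in Sham and 109, 107, 217, 147 and 159.7 CPM in TAC+PDE5A-I, with 0.93 ± 0.22 (adjusted p = 0.00875 in edgeR). In TAC neither arm was called (-0.58 ± 0.21 and -0.35 ± 0.27). In TAC+PDE9A-I 5 miR-208a-3p was at 23.3 CPM of library totals and miR-208a-5p at 137, against 431 to 872 and 55.8 to 80.7 in Sham.

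miR-455 lies in an intron of the collagen gene Col27a1. miR-455-5p measured 242, 119, 118, 389 and 139 CPM in Sham and 13.8, 13, 5.67, 0 and 0 CPM in TAC+PDE5A-I, with a log2 fold change of -4.84 ± 0.92 (adjusted p = 0.00392 in edgeR). miR-455-3p measured 15.4, 12.5, 8.78, 9.85 and 11.6 CPM in Sham and 26.1, 21.4, 58.6, 46.2 and 42.2 CPM in TAC+PDE5A-I, with 1.72 ± 0.30 (adjusted p = 0.00227 in edgeR). The arms were also called in opposite directions in TAC, at -1.05 ± 0.33 and 2.63 ± 0.40 (adjusted p = 0.0458 and 0.000959 in edgeR), in libraries of 5373960 to 8497792 counts.

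Several microRNAs known from the overloaded heart were not called with all libraries, but were called higher under some of the alternatives. miR-208b-3p, cut from an intron of Myh7, the slow myosin heavy chain that the overloaded mouse ventricle takes up again, measured 176, 142, 118, 174 and 173 CPM in Sham and 294, 227, 61.1, 63.7 and 101 CPM in TAC+PDE5A-I. The 2 deeper libraries lay above every Sham library and the 3 shallow ones below. Its log2 fold change was -0.06 ± 0.44, with a 95% interval of -1.03 to 0.91 (adjusted p = 0.919 in edgeR). With the deeper libraries it was called higher at 0.76 ± 0.18 (adjusted p = 0.0202 in edgeR), and after GC correction at 3.27 ± 0.30 (adjusted p = 4.53e-05 in edgeR). In TAC it was 4.26 ± 0.32 (adjusted p = 1.16e-05 in edgeR). The TAC+PDE9A-I 5 library held 74.4 CPM of library totals and the rest of that group 552 to 3303. miR-208b-3p and miR-208a-3p share their seed and differ at 3 of 22 bases, G10A, A16G and C18U (miR-208a-3p first, counted from the 5′ end).

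miR-199a-5p measured 192, 173, 168, 173 and 209 CPM in Sham and 332, 266, 159, 171 and 155 CPM in TAC+PDE5A-I. The deeper libraries were above Sham and the others overlapped or lay below it. Its log2 fold change was 0.24 ± 0.24, with an interval of -0.28 to 0.77 (adjusted p = 0.423 in edgeR), and 0.73 ± 0.13 with the deeper libraries (adjusted p = 0.00701 in edgeR), beside 2.07 ± 0.17 in TAC. It was also called higher after GC correction (0.48 ± 0.18, adjusted p = 0.0486 in edgeR) and with upper-quartile scaling (0.89, adjusted p = 0.0022 in edgeR). The joined miR-199a-3p/miR-199b-3p was at -0.69 ± 0.46 with an interval of -1.70 to 0.33 (adjusted p = 0.242 in edgeR), 0.19 ± 0.11 with the deeper libraries and 1.61 ± 0.12 in TAC, and was called higher after GC correction (1.04 ± 0.17, adjusted p = 0.00117 in edgeR). miR-34c-5p, of the p53-responsive miR-34 family, measured 31.6, 46.2, 45.4, 39.7 and 52.1 CPM in Sham and 111, 71.4, 25.2, 52.5 and 42.2 in TAC+PDE5A-I (0.50 ± 0.35, adjusted p = 0.26 in edgeR). With the deeper libraries it was called higher at 1.11 ± 0.23 (adjusted p = 0.0114 in edgeR), with upper-quartile scaling at 1.11 (adjusted p = 0.00855 in edgeR), and in TAC it was 2.16 ± 0.27. miR-30c-1-3p, called lower in TAC at -0.69 ± 0.13, lay at -0.19 ± 0.14 under sildenafil, with an interval of -0.51 to 0.12 (adjusted p = 0.286 in edgeR).

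**Figure D5:**
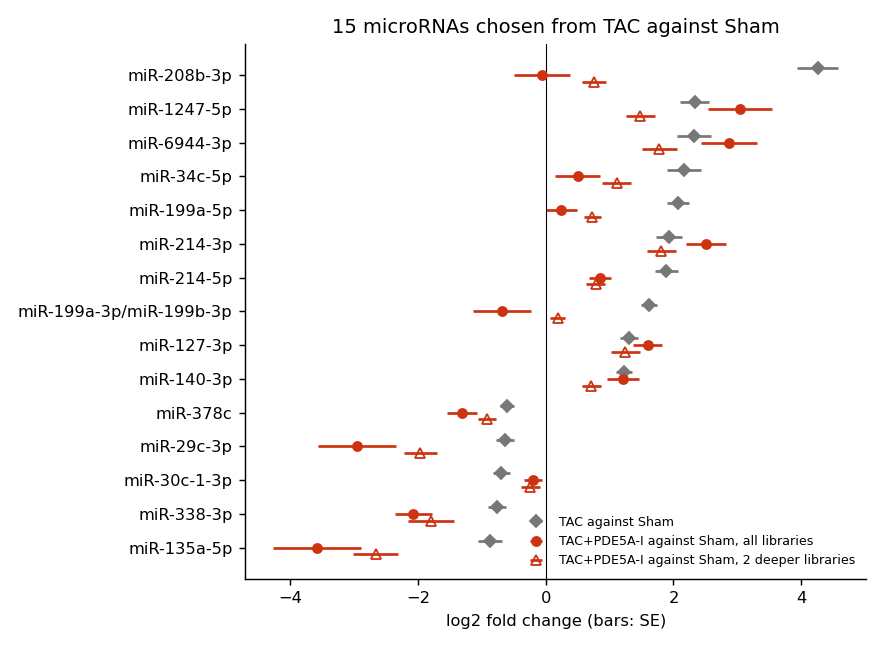
Log2 fold change against Sham (x axis, bars are SE) of the 15 microRNAs with the smallest p in TAC against Sham (10 higher, 5 lower, mean of at least 10 CPM), for TAC (grey diamonds), TAC+PDE5A-I with all libraries (red circles) and TAC+PDE5A-I with the 2 deeper libraries (open triangles). All 3 use the same 5 Sham libraries. miR-208b-3p and miR-199a-3p/miR-199b-3p lie at or below 0 with all TAC+PDE5A-I libraries and above 0 with the deeper ones, while miR-1247-5p, miR-6944-3p and miR-214-3p lie above 0 in each.

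miR-21a-5p, a microRNA of activated fibroblasts, was called lower than Sham, at 2653, 2993, 2608, 2844 and 2997 CPM in Sham and 886, 1145, 120.3, 142 and 235 CPM in TAC+PDE5A-I. Its log2 fold change was -2.48 ± 0.63 (adjusted p = 0.012 in edgeR) and -1.45 ± 0.14 with the deeper libraries (adjusted p = 0.00055 in edgeR). After GC correction it was -0.20 ± 0.26 (adjusted p = 0.56 in edgeR), and in TAC it was 1.86 ± 0.27 (adjusted p = 0.000754 in edgeR). In TAC+PDE9A-I 5 miR-21a-5p held 203 CPM of library totals, and in the rest of that group 2484 to 17447. The passenger arm miR-21a-3p was at -0.63 ± 0.23 (adjusted p = 0.0478 in edgeR), but at 0.0084 with upper-quartile scaling. miR-22-3p, the most abundant microRNA of Sham and a muscle microRNA, was called lower at -0.84 ± 0.28 (adjusted p = 0.0347 in edgeR), not with the deeper libraries (-0.36 ± 0.15, adjusted p = 0.124 in edgeR).

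Muscle microRNAs divided by arm and member. Of 15 tested members of the muscle list, 1 was called higher and 8 lower, against 17.9% and 22.6% of all 446, with a median of -0.77. The median was -0.42 with scaling by total counts and -0.02 with upper-quartile scaling, and after GC correction 2 of 7 members were called higher and 1 lower, with a median of -0.23. miR-1a-3p, which restrains growth genes in heart muscle, measured 8587, 6011, 7135, 6234 and 5166 CPM in Sham and 734, 1053, 39.7, 33.7 and 53.9 CPM in TAC+PDE5A-I, a log2 fold change of -4.11 ± 1.03 (adjusted p = 0.0115 in edgeR) and -2.87 ± 0.27 with the deeper libraries. In TAC+PDE9A-I 5 it held 127 CPM of library totals, and in the rest of that group 2411 to 6619. miR-499-5p, from an intron of the myosin gene Myh7b, measured 904 to 1325 and 13.1 to 317 CPM (-3.28 ± 0.77, adjusted p = 0.00875 in edgeR). After GC correction miR-499-5p was at -0.73 ± 0.28 (adjusted p = 0.0544 in edgeR). miR-133a-3p, transcribed with miR-1a, measured 159173, 165129, 163638, 150265 and 140013 CPM in Sham and 139955, 141961, 233662, 178873 and 169469 CPM in TAC+PDE5A-I and was not called (0.15 ± 0.18, interval -0.25 to 0.55, adjusted p = 0.519 in edgeR). It was called higher with scaling by total counts (0.49, adjusted p = 0.0277 in edgeR) and with upper-quartile scaling (0.89, adjusted p = 0.014 in edgeR). Its ranges overlapped, and this marker of striated muscle was among the most abundant microRNAs of every library, as fits the myocardial label. miR-206-3p of skeletal muscle had 0 counts in all 10 libraries.

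The list of textbook microRNAs of hypertrophy with raised levels had 7 of 28 tested members called higher and 5 lower, with a median of -0.01. Over all 446 microRNAs 17.9% were called higher and 22.6% lower, and with the deeper libraries 7.66% and 16.8% of 561. With the deeper libraries the raised list had 9 of 28 higher and 2 lower, with a median of 0.37. The list with lowered levels had 1 of 24 called higher and 14 lower, with a median of -1.13, and 14 lower with the deeper libraries, with a median of -0.61. With scaling by total counts and upper-quartile scaling, the raised list's median was 0.34 and 0.64 and the lowered list's -0.79 and -0.53. After GC correction, where 27.6% of all tested microRNAs were called higher and 11.9% lower, the raised list had 15 of 25 higher and 2 lower with a median of 1.01, and the lowered list 5 of 14 higher and 5 lower with a median of -0.04.

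Of the miR-29 family, which restrains collagen genes, edgeR called 0 of 7 tested arms higher and 3 lower (0 and 4 at an unadjusted p under 0.05 and by DESeq2), and the 3 share the seed AGCACCA. Over all 446 microRNAs, 17.9% were called higher and 22.6% lower. miR-29c-3p measured 927, 639.7, 826, 894 and 779.6 CPM in Sham and 147, 264, 46, 29.4 and 35.1 CPM in TAC+PDE5A-I, with a log2 fold change of -2.95 ± 0.61 (adjusted p = 0.00542 in edgeR), -0.68 ± 0.16 after GC correction and -0.64 ± 0.14 in TAC. miR-29b-3p was at -2.92 ± 0.40 (adjusted p = 0.000911 in edgeR) and at -0.19 ± 0.29 after correction (adjusted p = 0.621 in edgeR). The most abundant member, miR-29a-3p, measured 5469 to 6288 CPM in Sham and 1916 to 3948 in TAC+PDE5A-I and was called lower at -0.99 ± 0.22 (adjusted p = 0.00692 in edgeR), but higher after GC correction, at 1.12 ± 0.28 (adjusted p = 0.00945 in edgeR). Of the miR-30 family of heart muscle, edgeR called 0 of 11 higher and 7 lower (0 and 7 at an unadjusted p under 0.05, 0 and 8 by DESeq2), with a median of -1.57. miR-30a-5p measured 38293 to 54860 and 3682 to 27433 CPM (-1.77 ± 0.51, adjusted p = 0.0204 in edgeR).

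The let-7 guides, 9 tested microRNAs with the seed GAGGUAG, had 3 called higher and 2 lower, against 17.9% and 22.6% of all 446, with a median of 0.04. let-7b-5p measured 2041, 2521, 2471, 2002 and 2022 CPM in Sham and 3732, 2017, 5866, 5890 and 6813 CPM in TAC+PDE5A-I, with 1.14 ± 0.30 (adjusted p = 0.0148 in edgeR) but 0.40 ± 0.24 with the deeper libraries (adjusted p = 0.281 in edgeR). let-7f-5p measured 22548, 19456, 24587, 20492 and 16790 CPM in Sham and 10041, 10666, 2433, 1578 and 855 CPM in TAC+PDE5A-I, with -2.02 ± 0.65 (adjusted p = 0.0313 in edgeR). let-7b-5p and let-7f-5p differ by G12A, G17A and G19A (let-7b-5p first), and their GC contents are 45.5% and 31.8%. let-7c-5p (1.03 ± 0.24) and let-7g-5p (-1.42 ± 0.46) likewise lay on opposite sides. After GC correction all 9 guides were called higher, against 27.6% of all 388, with let-7f-5p at 0.90 ± 0.24 (adjusted p = 0.0124 in edgeR). With the deeper libraries 3 of 10 were called lower, against 16.8% of all 561.

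Other calls that did not survive the GC correction included some with very small p. miR-190a-5p, at 22.7% GC, measured 44.7, 37.1, 40.8, 35.9 and 40.9 CPM in Sham and 2.48, 6.39, 1.89, 1.87 and 2.6 CPM in TAC+PDE5A-I, with -3.59 ± 0.33 (adjusted p = 6.86e-05 in edgeR) and 0.51 ± 0.46 after correction (adjusted p = 0.422 in edgeR). miR-340-5p went from -2.75 ± 0.31 (adjusted p = 0.000261 in edgeR) to 1.59 ± 0.48 (adjusted p = 0.0226 in edgeR). miR-301a-3p went from -2.60 ± 0.32 (adjusted p = 0.000466 in edgeR) to -0.26 ± 0.34 (adjusted p = 0.571 in edgeR), and miR-338-3p from -2.07 ± 0.29 (adjusted p = 0.000941 in edgeR) to -0.01 ± 0.37 (adjusted p = 0.978 in edgeR). With the deeper libraries all 4 were called lower, at -3.13 ± 0.36, -2.37 ± 0.21, -2.10 ± 0.27 and -1.79 ± 0.36. With GC correction and without the shallow libraries, miR-301a-3p was again called lower (-0.94 ± 0.18, adjusted p = 0.00942 in edgeR) and the other 3 were not called.

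Markers of endothelial and erythroid cells were called lower with all libraries, while leukocyte markers were called at or below the shares over all 446 microRNAs (17.9% higher, 22.6% lower). In bulk tissue, fewer cells of a type and less microRNA per cell cannot be told apart. All 4 endothelial arms were tested and 3 were called lower, and their summed level was 34892 to 47757 CPM in Sham and 869 to 16086 in TAC+PDE5A-I. miR-126a-5p, from Egfl7, measured 25683 to 35390 CPM in Sham and 440.5 to 8097 in TAC+PDE5A-I (-3.41 ± 0.86, adjusted p = 0.0119 in edgeR), while its other arm miR-126a-3p was not called (-1.52 ± 0.72, adjusted p = 0.114 in edgeR). In TAC+PDE9A-I 5, by CPM of library totals, miR-126a-5p held 1015 and smooth muscle miR-143-3p 11293. The rest of that group held 19825 to 31714 and 66961 to 102192. Of 4 smooth muscle arms, 2 were called lower, miR-143-3p at -2.34 ± 0.67 and miR-145a-3p at -3.22 ± 0.86 (adjusted p = 0.0202 and 0.0153 in edgeR), but their partners miR-143-5p (-0.15 ± 0.17) and miR-145a-5p (0.49 ± 0.19) were not (adjusted p = 0.474 and 0.0544 in edgeR). The summed erythroid level was 477 to 1514 CPM in Sham and 20.1 to 425 in TAC+PDE5A-I, with all 3 members lower. Of 10 leukocyte arms, 2 were called lower and 1, miR-150-5p at 0.63 ± 0.18 (adjusted p = 0.0205 in edgeR), higher, and their sums overlapped at 2893 to 3328 and 2523 to 3197 CPM. The leukocyte median of -0.36 was 0.26 with upper-quartile scaling. Of 11 tested markers of other tissues, 5 were called lower, and neuronal miR-124-3p had 0 counts in all 10 libraries. After GC correction, 1 of 3 endothelial arms with a sequence was lower (median -0.80, against -2.89 for 4 arms before), 1 of 3 erythroid members was lower (median -0.48, against -3.56 before), and the other-tissue markers had 2 lower and 1 higher of 10 (median -0.17, against -1.87 for 11 before). The part of cell composition in the microRNA changes was not tested.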

How the data were processed

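Per the labels' protocols, total RNA of frozen left ventricle (miRNeasy) went into Illumina TruSeq Small RNA libraries. The authors deposited raw counts per mature microRNA, and the submitters' processing notes list Bowtie 1.1.1, CASAVA 1.8.4, DESeq 1.26.0 and cutadapt 1.8 without their roles. Genome build and microRNA annotation: not given in the sources used here. The table had 25958 lines, of which 24055 had no name and 1903 named a microRNA. The smallest value above 0 was 2 and no value was 1. Near-identical microRNAs can share reads, and 12 names are joined.

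The 10 libraries were fitted alone in R 4.3.3 with edgeR 4.0.16 (filterByExpr, TMM, robust quasi-likelihood F test), adjusted over the 446 tested. SEs are the absolute log2 fold change over the square root of F. TAC against Sham was fitted the same way. The GC correction entered as offset a loess curve per library (span 0.75) of log2 CPM deviations on GC content, for the 388 microRNAs (87.0%) with a RefSeq sequence, and DESeq2 1.42.0 was an alternative. The depth is given in the report, and a count of 0 allows up to 3 counts (0.401 CPM of library totals in the deepest of the 10 libraries, 2.49 in the shallowest), which covers counting error only because reads carry no molecular identifiers. Members and lists were chosen with earlier results of these data known. Named microRNAs were a set list, the 12 with the smallest p in each direction (mean of at least 10 CPM), the same among those called in every required fit, those at 0 in 1 group, opposed hairpins, 15 from TAC against Sham and up to 4 per list. The remaining members called in every required fit, miR-351-5p and further arms of the miR-99b and let-7 clusters were named after their values were seen.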

Additional observations from a re-analysis of the deposited data

Results flagged for a closer look

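In 8 of 248 groups of 5 libraries, 1 library stood apart from its group by Dixon's criterion. Chance alone would give about 1 in 20, or 12.4. In TAC+PDE5A-I 2, miR-9-5p was at 10.3 CPM against 3.58 to 5.19 in the other 4 libraries, miR-190a-5p at 6.39 against 1.87 to 2.60, miR-1b-5p at 9.58 against 0 and miR-337-5p at 9.35 against 15.6 to 17.5. In TAC+PDE5A-I 1, miR-153-3p was at 1.65 CPM against 0. In Sham, let-7a-1-3p/let-7c-2-3p was at 150.5 CPM in replicate 2 against 193 to 196, miR-15b-3p at 7.94 in replicate 3 against 11.4 to 12.4, and let-7e-3p at 9.61 in replicate 1 against 14.6 to 16.3.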

How the results depend on the processing

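Against 80 higher and 101 lower calls, the higher calls numbered 43 without the shallow libraries, 168 with upper-quartile scaling, 135 with scaling by total counts and 49 with GC correction and without the shallow libraries. The lower calls numbered 46 with GC correction, 42 with GC correction and without the shallow libraries, and 168 with the range of ear tags as covariate. The shallow TAC+PDE5A-I libraries carry ear tags 627, 647 and 697, and the deeper ones 533 and 536. Sham libraries carry 165, 175, 189, 606 and 608. Among the treated libraries, depth and range of ear tags coincide, so the covariate fit cannot tell them apart. Leaving out each library in turn gave 43 to 86 higher and 70 to 151 lower calls, with 46 higher without Sham 3, 43 without TAC+PDE5A-I 3 and 44 without TAC+PDE5A-I 4. The cause of these shifts was not tested. Opposed hairpins fell from 6 to 3 without the shallow libraries. There the difference in total counts was -2001410 and that in detected microRNAs -32.1, neither past the threshold (exact permutation p = 0.19 and 0.143). The TAC+PDE5A-I mean of summed levels without the shallow libraries was 282531 CPM for muscle, 65827 for miR-30, 1240 for let-7 passengers, 6810 for miR-15/16, 3017 for the miR-199a and miR-214 group, 36784 for smooth muscle, 13274 for endothelial and 1451 for other-tissue microRNAs. With all libraries these means were 410922, 43817, 1657, 3611, 2023, 18308, 6145 and 796.

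The log2 fold changes of some microRNAs changed sign. Without the shallow libraries these were miR-208b-3p (0.76), miR-133a-3p (-0.12), miR-146b-5p (0.23), miR-486b-5p (-0.033) and miR-199a-3p/miR-199b-3p (0.19). With upper-quartile scaling they were miR-208b-3p (0.53), miR-21a-3p (0.0084), miR-30c-1-3p (0.53) and miR-143-5p (0.53), and with scaling by total counts miR-208b-3p (0.29), miR-30c-1-3p (0.16) and miR-143-5p (0.20). With all 4 groups in 1 fit miR-208b-3p was at 0.062. After GC correction they were miR-208b-3p (3.27), miR-29a-3p (1.12), miR-146b-5p (1.17), miR-22-3p (0.34), let-7f-5p (0.90), miR-9-5p (0.45), miR-190a-5p (0.51), miR-340-5p (1.59), miR-199a-3p/miR-199b-3p (1.04) and let-7g-5p (1.05). After GC correction and without the shallow libraries they were miR-208b-3p (2.83), miR-21a-5p (0.033), miR-29a-3p (0.38), miR-126a-3p (0.063), miR-146b-5p (1.261), miR-451a (0.18), miR-22-3p (0.14), let-7f-5p (1.02), miR-340-5p (0.13), miR-106b-3p (-0.32), miR-744-5p (-0.28), miR-199a-3p/miR-199b-3p (1.23), let-7g-5p (0.93), miR-16-5p (0.31), miR-126b-5p (0.14), miR-203-3p (0.16), miR-351-5p (-0.064) and miR-99b-3p (-0.17). With the range of ear tags as covariate miR-199a-5p was at -0.24 and miR-34c-5p at -0.20, and among ear tags in the 600s only they were at -0.14 and -0.084. The treated libraries in the 600s are the shallow ones, set there against Sham 4 and Sham 5 alone. With each library left out in turn, miR-208b-3p ranged from -0.44 to 0.063, miR-133a-3p from -0.15 to 0.24, miR-34a-5p from -0.014 to 0.29 and let-7a-5p from -0.0799 to 0.22.

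Replicate numbers did not pair the samples: same-numbered deviations correlated at -0.27 to 0.16, and 1 of 5 Sham libraries correlated best with its own number. With the replicate block, 62 microRNAs were called higher and 88 lower. Without libraries under 2000000 counts, 2 libraries stand for TAC+PDE5A-I. MicroRNAs under about 2.49 CPM cannot be told from 0 in the shallowest library.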
